A study of Rattus norvegicus with 9 samples.

Results

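Among the transcripts that were lower in PC12 cells given erastin, 153 were lower by about the same amount when PQR NPs were given together with erastin. They are 153 of the 41078 transcripts in the count table, and they are called the kept falls here. PC12 is a rat cell line from a pheochromocytoma of the adrenal medulla, used as a neuron-like model. Counts were available for 9 wild-type PC12 libraries: 3 untreated (control), 3 given Erastin, and 3 given Erastin + PQR NPs, a nanodelivery system that the labels do not describe further. All 3 groups share the cell line and the genotype. No group received the particles alone, and no dose or time is stated in the labels. The labels leave out whether a group's libraries are separate cultures, so the errors and p-values measure the spread between these libraries, which may be technical.

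Erastin blocks the cystine/glutamate antiporter, which brings in the cystine that cells need to make glutathione. When glutathione runs short, lipid peroxides accumulate with the help of iron, and cells can die by ferroptosis, the form of death named in the study's title. The study asks how far the particles counter erastin, and the kept falls are the transcripts whose lower level under erastin was also there with the particles. The table gives Ensembl rat transcript IDs without gene names, and the RefSeq gene table at hand (GRCr8) holds 0 of these 41078 IDs. The members are therefore described by level, size of fall and rank. No gene, pathway or protein can be named for them, and markers of PC12 or of other cell types could not be checked. The counts are of single transcripts, so a lower count can be fewer reads from the gene or fewer reads assigned to that isoform. In these bulk libraries, fewer cells carrying a transcript and less of it per cell cannot be told apart.

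The kept falls were chosen by measured values of these same libraries. Counts were divided by the library total and scaled to a common total (CPM), and log2 ratios of group means were taken after adding 0.5 CPM. A member had a control mean of at least 3 CPM and a log2 ratio to control of -0.6 or lower in both treated groups, which is 66.0% of the control level or less. Its log2 ratio between the treated groups lay within 0.3 of 0, a fold of at most 1.23 once the 0.5 CPM is added. Its 6 treated libraries all lay below its 3 control libraries, and its mean over the 9 libraries was under 1000 CPM. These criteria use all 3 contrasts between the groups, so the differences given for the 153 are descriptions and support nothing by themselves. The same controls enter both ratios to control.

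The criteria narrowed the table in steps. Of 12152 transcripts at or above the control minimum, 3207 (26.4%) had the fall with erastin, and 584 (4.81%) had it in both treated groups. Most of those 584 differed between the treatments: in 342 the co-treated mean was above the erastin mean by more than the limit, and in 54 it was below by more than the limit. Of the 188 within the limit, 33 were left out because a treated library overlapped the controls, and 2 because of their abundance. The 153 make up 4.77% of the 3207 erastin falls and 26.2% of the 584. In the scatter of both ratios they form a strip along the diagonal, while most transcripts with an erastin fall lie nearer to the line of no difference between co-treated cells and controls.

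**Figure D1:**
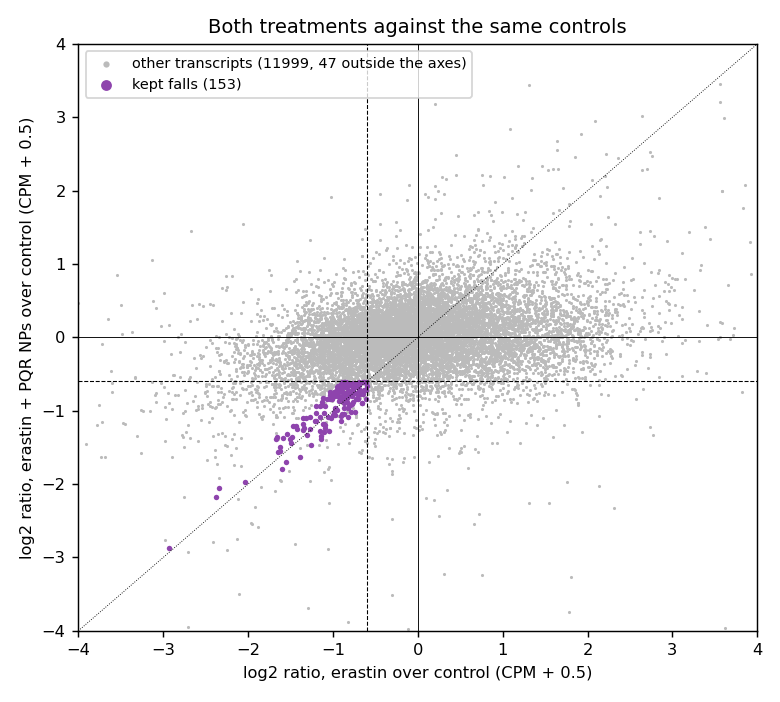
Each point is 1 of the 12152 transcripts at or above the control minimum of 3 CPM. The x axis is the log2 ratio of erastin over control and the y axis that of erastin + PQR NPs over control, both of group mean CPM + 0.5. Dashed lines mark -0.6, the dotted line marks equal ratios, and the 153 kept falls (purple) lie along it by the way they were chosen. Another 47 transcripts lie outside the axes.

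At the edge of the choice, the values ran on without a gap. The 3 members nearest to the erastin threshold had log2 ratios of -0.603, -0.605 and -0.608, and the 3 nearest transcripts outside that met everything else had -0.591, -0.589 and -0.568. For the co-treated ratio the nearest members all had -0.603, and the nearest outside had -0.592, -0.584 and -0.584. The limit between the treatments had members at 0.297, 0.292 and 0.292 inside it and transcripts at 0.308, 0.310 and 0.315 outside. Beyond that limit lay 308 transcripts that met all the other criteria. The erastin threshold alone left out 28, and the co-treated threshold alone left out 69. Transcripts that missed both falls are not counted here. Another 47 were left out by the control minimum alone, the nearest at 2.996 CPM.

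The kept falls were mostly of middling abundance. Their control means ran from 3.27 to 884 CPM with a median of 25.4 CPM, and the median over the 12152 transcripts at the control minimum was 28.7 CPM. Between 3 and 10 CPM lay 31 members (20.3%, against 22.4% of the 12152). Another 55 lay between 10 and 30 CPM (35.9% against 28.8%), 42 between 30 and 100 CPM (27.5% against 31.2%) and 25 between 100 and 1000 CPM (16.3% against 16.8%). CPM is not scaled to transcript length, so the ranks below order members by counts and not by molecules.

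The typical kept fall was to about 1/2 of the control level. The median member stood at 52.0% of its control level with erastin (interquartile range 43.1% to 56.6%) and at 53.3% under co-treatment (44.7% to 59.2%). Both treated means were at or under 1/2 of control for 53 members (34.6%, against 1.52% of the 12152). Both were above it for 78 (51%, against 84.1%). A fall to 1/4 or less in both treated groups was seen in 4 members (2.61%, against 0.189%). The choice by both falls favours these differences. The log2 ratios to control had medians of -0.90 with erastin and -0.86 under co-treatment, beside -0.10 and 0.00 over the 12152. The other 3054 erastin falls had a median of -1.02 with erastin and -0.16 under co-treatment, a deeper median fall with erastin and a shallower one under co-treatment.

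Together the 153 took 0.972%, 0.950% and 0.990% of all counts in the control libraries. Their share was 0.508%, 0.450% and 0.464% in the erastin libraries and 0.523%, 0.501% and 0.490% in the co-treated libraries. The treated groups overlapped each other in this share and lay far from the controls, as the choice fixes: the means were 0.971% ± 0.020 (SD, n = 3) for control libraries, 0.474% ± 0.030 for erastin libraries and 0.505% ± 0.017 for co-treated ones. The 12 members with most control counts held 44.5% of the members' control counts. Library totals ran from 34772755 to 40826754 counts.

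**Figure D2:**
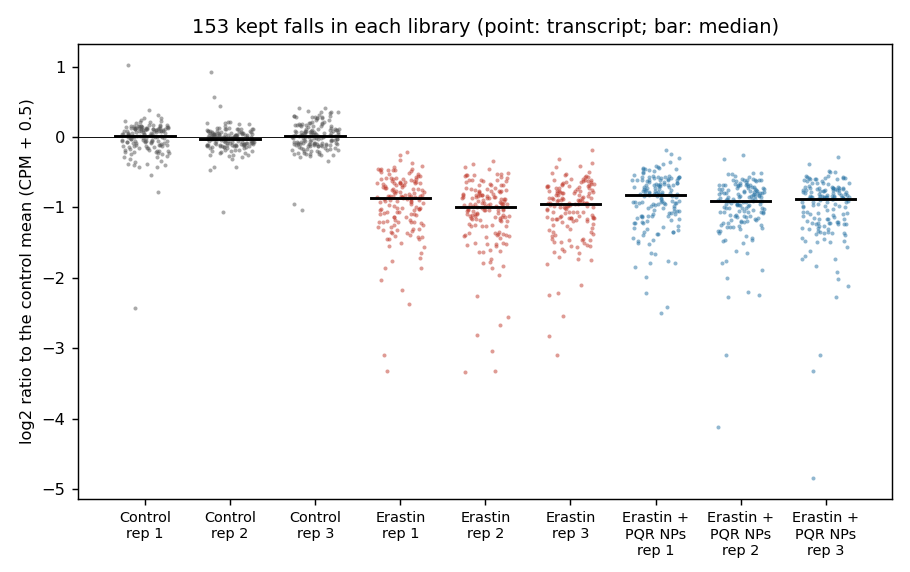
Each point is 1 of the 153 kept falls in 1 of the 9 libraries, as the log2 ratio of its CPM to its control mean (both + 0.5). Black bars are medians: 0.02, -0.02 and 0.01 in controls, -0.87, -0.99 and -0.95 with erastin, and -0.82, -0.91 and -0.87 with erastin + PQR NPs. No treated library stands apart from the other 5.

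The member with the highest control level, ENSRNOT00000011731, had 969.5, 901 and 781 CPM in the control libraries. It had 419, 310.0 and 313 CPM in the erastin libraries and 419, 402 and 416 CPM in the co-treated ones. All 6 treated libraries were well under the lowest control, and erastin replicate 1 was level with the co-treated libraries while the other 2 erastin libraries were lower. Its group means were 884 ± 95.4, 347 ± 62.2 and 412 ± 8.90 CPM (SD, n = 3), or 39.3% and 46.7% of control. edgeR's quasi-likelihood test gave log2 fold changes of -1.34 ± 0.13 (SE; adjusted p 5.6e-05) for erastin and -1.16 ± 0.13 (adjusted p 0.00085) for the co-treatment, and 0.18 ± 0.12 (adjusted p 0.26) between the treatments. That last difference was called once erastin replicate 1 was left out, at a log2 fold change of 0.34.

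The member ranked 2 by control level had 471, 372 and 442 CPM in controls, 280.0, 233 and 215 CPM with erastin and 263, 231 and 243 CPM under co-treatment. Erastin and co-treated libraries interleaved, at 56.7% and 57.3% of control. At rank 3 the libraries were tight: 426, 386 and 429 CPM in controls, 155, 144 and 149.5 CPM with erastin and 179.5, 182 and 176 CPM under co-treatment. Here the co-treated libraries all lay above the erastin ones, and the log2 fold change between the treatments was 0.19 ± 0.06 (SE; edgeR adjusted p 0.023). The kept fall at rank 3 was thus lower in both treated groups, at 36.1% and 43.4% of control, with a small measured gap between them.

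At rank 8 the controls had 328, 281 and 278 CPM, the erastin libraries 111, 103 and 101 CPM and the co-treated libraries 103, 119 and 105 CPM. This was the deepest fall among the 12 highest members, at 35.5% and 36.9% of control, with log2 fold changes of -1.49 ± 0.09 and -1.50 ± 0.09 (SE; edgeR adjusted p 7.6e-06 and 5.7e-05). The member at rank 10 was as even, with 219.6, 245 and 259 CPM, then 106, 100.3 and 109 CPM, then 107, 109 and 111 CPM, which is 43.6% and 45.2% of control. In both, the treated groups overlapped and no treated library came near the lowest control.

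Other high members were less even. Rank 7 had controls of 238, 284 and 386 CPM, erastin libraries of 142, 194 and 215 CPM and co-treated libraries of 195, 173 and 168 CPM, so that the highest erastin library came close to the lowest control. Rank 12 had 181, 176 and 251 CPM in controls and 112, 94.0 and 130.4 CPM with erastin, while its co-treated libraries spread from 81.6 to 169.7 CPM. Its co-treated difference from control was not called (edgeR adjusted p 0.13), although its group mean met the criterion. Over the 12 highest members, the test called the fall with erastin in 12 (26.3% of all transcripts tested) and the fall under co-treatment in 11 (9.21%). They were chosen on these contrasts, so the counts are a description.

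**Figure D3:**
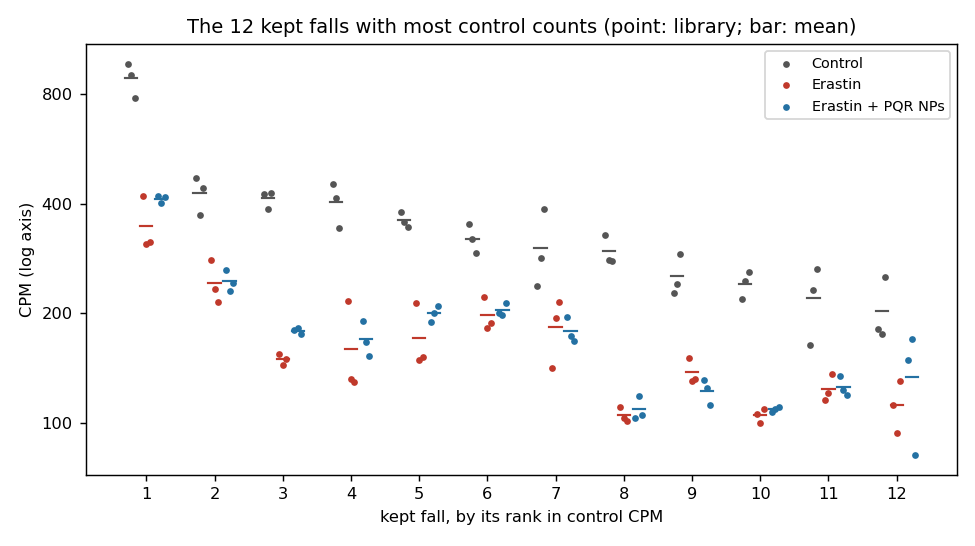
CPM on a log axis of the 12 kept falls with the highest control means, by rank. Points are libraries (grey control, red erastin, blue erastin + PQR NPs) and bars are means of 3. Ranks 3, 8 and 10 have tight groups, and the co-treated libraries of rank 12 spread from 81.6 to 169.7 CPM.

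The deepest kept fall, ENSRNOT00000086496, rested on few counts. It had 11, 229 and 197 counts in controls. With erastin it had 0, 6 and 0 counts, and under co-treatment 10, 0 and 0. Control replicate 1, at 0.293 CPM, was almost as low as the highest treated library, at 0.255 CPM, and the other controls were at 5.85 and 5.16 CPM. edgeR called the fall with erastin (adjusted p 0.024), and it was not called without control replicate 2 or 3 or without erastin replicate 1 or 3 (adjusted p 0.059, 0.052, 0.071 and 0.074). The difference of the co-treatment from control was not called (adjusted p 0.067). As 1 control library was near the treated level, the size of this fall depends on the 2 other controls.

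The next in depth were better measured. The member ranked 2 by size of fall had 4.80, 4.73 and 4.32 CPM in controls, 0.484, 0.371 and 0.604 CPM with erastin and 0.458, 0.882 and 0.561 CPM under co-treatment. It stood at 10.5% and 13.7% of control, with log2 fold changes of -3.23 ± 0.34 and -2.92 ± 0.33 (SE; edgeR adjusted p 9.1e-05 and 0.0010). Rank 4 by size of fall had 29.3, 26.7 and 35.2 CPM, then 6.35, 8.00 and 6.70 CPM, then 7.25, 7.23 and 7.70 CPM, with log2 fold changes of -2.10 ± 0.15 in both comparisons with control (SE; edgeR adjusted p 1.2e-05 and 9.1e-05). These members had every treated library below 1/3 of every control library.

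Rank 3 by size of fall was lower but more spread, with controls of 18.3, 17.4 and 13.3 CPM, erastin libraries of 5.41, 1.17 and 1.87 CPM and co-treated libraries of 3.10, 3.04 and 4.54 CPM. Rank 7 combined depth with abundance: 139, 125 and 123 CPM in controls, 46.8, 36.8 and 39.4 CPM with erastin and 46.1, 44.9 and 39.5 CPM under co-treatment. It stood at 31.8% and 33.7% of control, and its treated libraries interleaved.

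A few deep falls switched within a group. The member ranked 9 by size of fall had 4.58, 4.80 and 4.16 CPM in controls but 0, 0 and 3.36 CPM with erastin and 3.28, 0.539 and 0 CPM under co-treatment. Rank 12 had 4.84, 2.60 and 11.9 CPM with erastin and 18.8, 0.759 and 4.54 CPM under co-treatment, against controls of 19.3 to 23.0 CPM. Neither was called against control in either comparison (edgeR adjusted p 0.43 and 0.56 for the former, 0.17 and 0.33 for the latter). A library at 0 beside one at 3 CPM or more in the same group was found in 2 of the 153 members (1.31%, against 2.23% of the 12152). The member of rank 9 is among these, and that of rank 12 is not, as its lowest library was at 0.759 CPM. At ranks 9 and 12 the treated means agree within the limit while the libraries behind them do not, and the part of read assignment among isoforms was not tested.

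**Figure D4:**
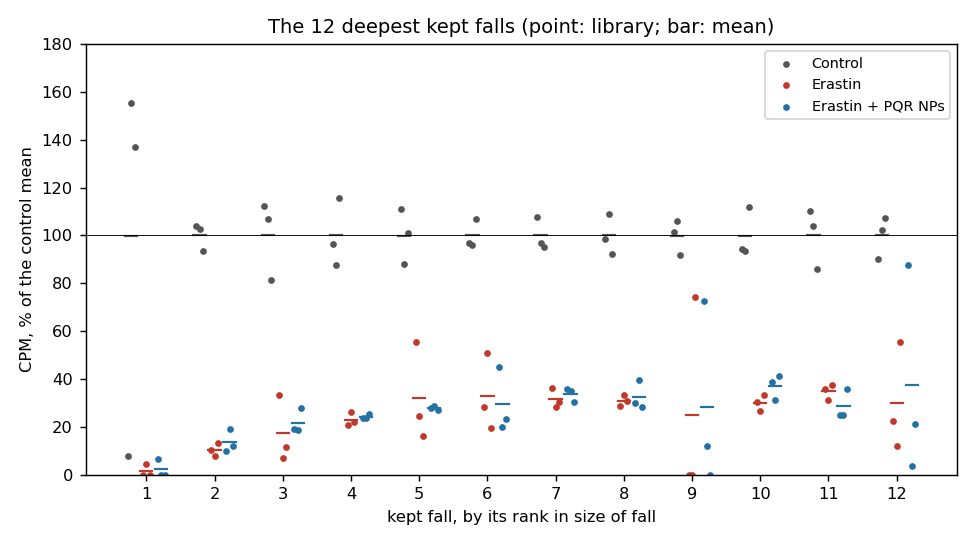
CPM as a percent of the control mean for the 12 kept falls with the lowest mean of both log2 ratios, by rank. Points are libraries (grey control, red erastin, blue erastin + PQR NPs) and bars are means of 3. Ranks 2, 4, 7 and 8 have close treated libraries, while ranks 9 and 12 spread widely, and the lowest control of rank 1 lies beside its treated libraries.

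edgeR's quasi-likelihood test, fitted over all 17123 transcripts that passed its filter on low counts, included all 153 members. With erastin 144 of the 153 were called lower, beside 26.3% of all transcripts tested. Under co-treatment 137 were called lower than control, beside 9.21%. The same 137 were called lower in both comparisons, beside 5.92% of the transcripts tested. As the choice used these contrasts, the counts say only how many chosen members also passed the test. The 9 members not called with erastin had control levels of 3.33 to 83.9 CPM, and the largest coefficient of variation (CV) within any of their groups had a median of 80.8%, against 18.7% in the 144 called. For the 16 not called under co-treatment that median was 58.5%, against 18.1%. Leaving out 1 library gave 131 to 137 called members with erastin and 95 to 117 under co-treatment. Over all transcripts, calls in either direction then numbered 8139 to 8860 and 1325 to 2608, of 17545 to 17701 tested. In the main fit they numbered 9061 and 2895 of 17123.

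Between the treatments, the libraries of 145 members overlapped (94.8%, against 29.5% of the 12152). In 5 members all co-treated libraries lay above all erastin libraries, beside 41.1% of the 12152 transcripts, and in 3 they all lay below, beside 29.4%. The test called 1 member higher (25.3% of all tested) and 2 lower (25.9%) under co-treatment than with erastin. With upper quartile scaling 2 were called higher and 0 lower, and without erastin replicate 1 there were 10 higher and 2 lower. Over all transcripts, 8918 of 17123 and 8461 of 17594 were called in these fits, in either direction. The low counts of members follow from the limit of 0.3 in the choice, and a member that was not called is not shown to be equal in both groups. Which treated group was higher in more members depended on the scaling, with small medians on each. On total counts the median log2 ratio between the treatments was 0.06, with the co-treated mean higher in 95 members. On TMM-adjusted library sizes it was -0.01, with the co-treated mean higher in 73. On DESeq2 size factors it was 0.01, with the co-treated mean higher in 84. Over the 12152 transcripts that median was 0.14 on total counts, 0.07 on TMM-adjusted sizes and 0.09 on DESeq2 size factors. It was above the members' median on each scale.

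The median CV over the 3 erastin libraries was 15.8% in the members, 12.6% in the other erastin falls and 11.2% over all transcripts at the control minimum. In controls these medians were 10.6%, 9.71% and 11.0%, and under co-treatment 9.10%, 7.60% and 8.54%. A highest library above 2 times the lowest was seen in 17 members with erastin (11.1%, against 8.61% of the 12152), in 8 under co-treatment (5.23% against 6.67%) and in 3 in controls (1.96% against 7.84%). Erastin replicate 1 was the highest of its group in 77 members (50.3%, against 45.4% of the 12152). The lowest control stood at 2 or more times the highest treated library in 16 members (10.5%, against 0.362% of the 12152) and at 1.5 or more times in 51 (33.3% against 1.41%), which the choice by separation favours. In 12 members (7.84% against 5.63%) it stood under 1.1 times, and those met the criterion narrowly.

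To see the pattern in libraries that a choice had not used, the same rule was applied without replicates 1, 2 and 3 of all groups in turn. The left-out control, erastin and co-treated library were then compared. The rule chose 207, 172 and 154 transcripts from the remaining 6 libraries, of which 106, 120 and 101 were among the 153. In the left-out libraries, both treated values lay below the control value in 185 of 207 (89.4%), 157 of 172 (91.3%) and 133 of 154 (86.4%). Over all transcripts at the control minimum this held for 32.9%, 30.3% and 31.5%. In the other erastin falls from the same libraries, which did not meet the rule, it held for 67.2%, 58.6% and 56.5%. These shares describe the re-chosen sets and not the 153, whose choice used all libraries. Both left-out treated values were compared with the same control library.

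The size of the falls was smaller in the left-out libraries. The median log2 ratio of erastin to control was -0.76, -0.86 and -0.91 there, and -0.89, -0.92 and -0.92 in the libraries used. For the co-treatment it was -0.53, -0.75 and -0.75, against -0.85, -0.89 and -0.87. Both ratios reached -0.6 in 72 (34.8%), 102 (59.3%) and 86 (55.8%) of the chosen transcripts, while 5.12%, 5.61% and 5.54% of all transcripts did so. Among the other erastin falls 15.1%, 14.1% and 13.2% did so. Replicate 1 was the library number in which the co-treated falls were weakest.

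Equality between the treatments carried over less well. The co-treated and erastin values of the left-out libraries were within 0.3 in 40.6%, 55.8% and 51.3% of the chosen transcripts. They were so in 28.8%, 26.1% and 24.8% of all and in 11.1%, 9.53% and 8.68% of the other erastin falls. In the chosen transcripts the co-treated value was the higher one beyond the limit in 40.1%, 29.1% and 35.1%. Over all transcripts this held in 39.5%, 42.1% and 43.1%. It was the lower one beyond the limit in 19.3%, 15.1% and 13.6% of the chosen and in 31.7%, 31.8% and 32.1% of all. Among the other erastin falls it was higher in 85.2%, 87.4% and 88.1% and lower in 3.74%, 3.11% and 3.18%. The median log2 ratio between the treatments was 0.16, 0.09 and 0.15, near the 0.11, 0.14 and 0.16 of all transcripts. In the other erastin falls chosen from the same libraries it was 0.84, 0.88 and 0.93. These single-library values carry more counting and replicate error than the group means of the rule, and 3 libraries a side give no smaller p than 0.1 in an exact permutation test, so none is given.

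**Figure D5:**
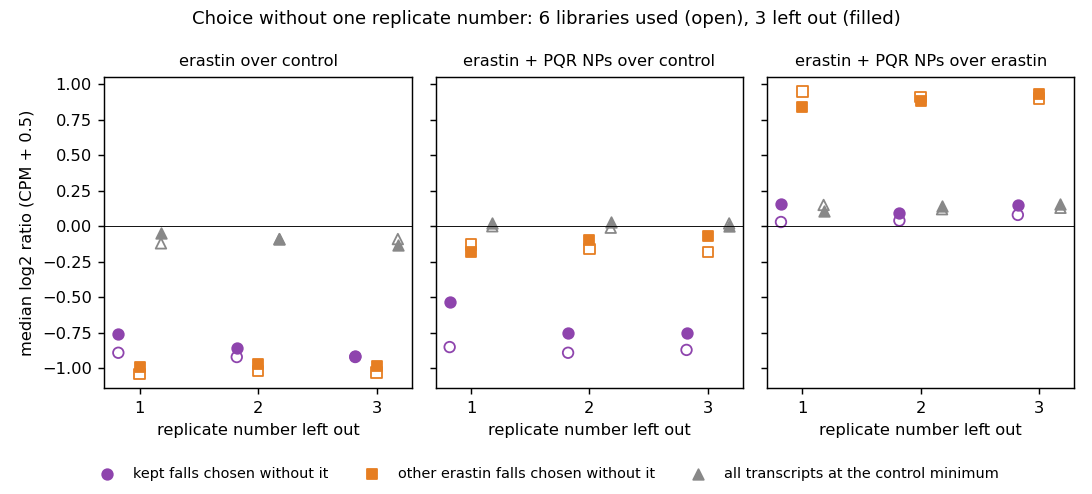
Median log2 ratios (CPM + 0.5) when 1 replicate number is left out of the choice. Open symbols are the 6 libraries used and filled symbols the 3 left out. Purple circles are the 207, 172 and 154 transcripts chosen without replicates 1, 2 and 3, of which 106, 120 and 101 are among the 153. Orange squares are other erastin falls and grey triangles all transcripts at the control minimum. In the left-out libraries these chosen transcripts are at -0.76 to -0.91 with erastin and -0.53 to -0.75 with erastin + PQR NPs. The other erastin falls are at -0.18 to -0.07 with erastin + PQR NPs.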

How the data were processed

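Poly(A) RNA libraries of PC12 cells were sequenced as paired ends, per the labels' protocols. The authors deposited raw counts per Ensembl rat transcript, 1 column per library, per the file headers; the submitters' processing notes list HISAT2 2.2.1 and the build Rnor 6.0. The counter, annotation release, strand setting and the division of reads among isoforms are not stated there. Columns were matched to samples by title. No pair of libraries within a group agreed within sampling noise (chi-square per degree of freedom 31.7 to 71.4).

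From the counts, CPM on library totals and the rule for members were computed (Python 3.11.15, pandas 2.3.3). The main test was edgeR 4.0.16 (R 4.3.3, limma 3.58.1), quasi-likelihood, on all 9 libraries with TMM scaling, its own low-count filter and Benjamini-Hochberg adjustment at 0.05. Its erastin comparison was tried on simulated counts, with changes in the erastin group only and the same spread for every transcript. The co-treated comparisons were not examined in that way. SE are approximate, from the fitted change and the F statistic. DESeq2 1.42.0 was an alternative. The members, and the lists and tests, were chosen with earlier results of these data known. Named members are those ranked in the first 12 by control CPM or by the mean of both log2 ratios; an ID is printed for the first of each. Planned gene lists and markers were not used, as no ID had a symbol. Counts per gene were not analysed here for the same reason.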

Additional observations from a re-analysis of the deposited data

Results flagged for a closer look

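In 3 of the 153 members the co-treatment differed from erastin in edgeR's quasi-likelihood test of that difference, although the choice bounded its size. Of all 17123 transcripts tested, 25.3% were called higher and 25.9% lower in this comparison, so the members were called less often, as that bound fixes. The member of rank 3 by control level was higher under co-treatment, with a log2 fold change of 0.19 (SE 0.06, adjusted p 0.023). Those of ranks 67 and 80 were lower, by -0.31 (SE 0.10, adjusted p 0.028) and -0.33 (SE 0.10, adjusted p 0.026). Rank 67 had 14.2, 14.8 and 14.1 CPM with erastin and 11.9, 13.2 and 11.4 CPM under co-treatment, against controls of 28.8 to 31.5 CPM. Rank 80 had 10.5, 11.5 and 11.0 CPM with erastin and 8.86, 9.94 and 8.79 CPM under co-treatment, against controls of 24.5 to 25.5 CPM. Ranks 67 and 80 were named after their values were seen. No member was called lower with upper quartile scaling, with no filter on low counts, with only the 6 libraries compared, or without erastin replicate 2 or co-treated replicate 1 or 3, so the calls of ranks 67 and 80 were lost there. No member was called higher without co-treated replicate 2, so that of rank 3 was lost there.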

How the results depend on the processing

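The number of members stayed within 1.5 times of 153 under all 16 alternatives tried, while the transcripts chosen changed. The number was 193 on TMM-adjusted library sizes (144 of the 153 among them) and 179 on DESeq2 size factors (150). With pseudocounts of 0.1 and 1 CPM it was 154 (150) and 148 (139). Leaving out 1 library gave 145 to 185 members. Of the 153, 115 (75.2%, without erastin replicate 1) to 141 (92.2%, without control replicate 2) were among them. Leaving out replicate number 1, 2 or 3 gave 207, 172 and 154 members. Among them were 106 (69.3%), 120 (78.4%) and 101 (66%) of the 153. Members called lower than control numbered 131 to 146 with erastin and 95 to 147 under co-treatment over all 13 alternatives each. Over all transcripts, calls in either direction ran from 8139 to 9558 with erastin and from 1325 to 4079 under co-treatment. The 95 came without co-treated replicate 2, with 1325 of 17623 called, and the 147 with DESeq2, with 4079 of 17007 called. The 3 members called between the treatments became 1 with only the 6 libraries compared and 5 with DESeq2. They ran from 1 (without erastin replicate 2 or co-treated replicate 3) to 12 (without erastin replicate 1, 10 of them higher). Over all transcripts, 8838 of 16597 were called with only the 6 libraries, 9269 of 17007 with DESeq2 and 8461 of 17594 without erastin replicate 1. The share of counts in the 153 without the 5 most abundant members was 0.722%, 0.367% and 0.384% in control, erastin and co-treated libraries. In a fit with a replicate block, edgeR called 141, 124 and 4 members in the 3 comparisons, beside 8884, 2723 and 8541 of all 17123 transcripts. The labels do not say that numbers pair libraries, and no pairing was assumed. The deviations of same-numbered libraries correlated at 0.00 to 0.14 over 9 pairs, above 0.1 in 2, both of replicate 1. Those of differently numbered libraries correlated at -0.11 to 0.10 over 18 pairs, above 0.1 in 0. A link between the replicate 1 libraries was not tested. Under the block the erastin fall of ENSRNOT00000086496 was not called (adjusted p 0.051). The causes were not tested. Counts under 10 in some library, found in 4 members, limit the folds of those members.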
